A study of Mus musculus with 8 samples.

Results

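The step from 1 h to 3 h of CpG was followed in dendritic cells grown from mouse bone marrow, as the change between 4 mRNA sequencing libraries. These were 1 library at each of the 2 times from RelB-DBDB cells and 1 at each time from IFNAR;RelB-DBDB cells, out of 8 libraries in all. Each 3 h library was set against the 1 h library of its own genotype. The mice were C57BL/6 and the marrow was cultured with GM-CSF at 20 ng/ml and IL-4 at 10 ng/ml. CpG (ODN 1668) was given at 0.1 µM. The remaining 4 libraries were a control (labelled 1 h) and an 8 h CpG library of each genotype, and their values are given beside the step. Both genotypes carry the RelB-DBDB change, so no library of the step had unaltered RelB, and IFNAR;RelB-DBDB cells also lack the type I interferon receptor, per the series description. Below, values with IFNAR are from RelB-DBDB and values without it from IFNAR;RelB-DBDB. The labels tie no library to an animal or culture, so p-values measure only the spread between these libraries, which may be technical. With no control at 3 h or 8 h, longer culture and longer CpG cannot be told apart.

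CpG oligonucleotides are taken up into endosomes, where they activate Toll-like receptor 9, which signals through MyD88 to NF-κB and the MAP kinases. The first genes to respond need no new protein. They encode short-lived transcription factors, cytokines, and the inhibitors and RNA-destroying proteins that end the response. Later genes need remodelled chromatin, newly made factors or secreted interferon acting through IFNAR, and with them the cell matures into one that presents antigen and activates T cells.

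A gene was tested when it had 1 CPM (reads scaled to the library total) or more in at least 2 of the 4 libraries, which 11850 genes did. The step is the log2 change of CPM + 1, fitted over both genotypes with limma, and a gene is called, and said to rise or fall, when its Benjamini-Hochberg adjusted p was under 0.05. Of the genes tested, 2998 (25.3%) were called, 991 (8.36%) higher and 2007 (16.9%) lower. At least a 2-fold change was reached by 341 of the higher and 391 of the lower calls. The median step of all tested genes was -0.14. TMM factors, which move that median to -0.02, gave 1243 higher and 1111 lower calls (10.5% and 9.38% of genes), and median-ratio factors (-0.01) gave 1353 and 1150 (11.4% and 9.7%). The fit has 1 residual degree of freedom, the disagreement of the 2 genotypes, so a gene is called less readily the more the genotypes disagree. Limma also drew the variance of each gene toward that of genes of like level, with a prior of 9.03 degrees of freedom. The SEs and p-values therefore rest mostly on the spread of other genes, and can be small where the genotypes disagree. With all 8 libraries in an additive model 822 genes were called, 391 higher (3.3%) and 431 lower (3.64%). In that fit, leaving out a 1 h library gave 10 (RelB-DBDB) and 97 (IFNAR;RelB-DBDB) calls, and leaving out either control gave 379. Leaving out the 3 h library of either genotype gave 0 calls by limma, with 1540 (RelB-DBDB) and 1674 (IFNAR;RelB-DBDB) genes at an unadjusted p under 0.05. Leaving out an 8 h library gave 3878 (RelB-DBDB) and 3846 calls.

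The libraries of the step held 5492066 to 11779181 reads, so that 0 reads leave room for 3 reads, which is 0.255 to 0.546 CPM by library (counting error only). Mitochondrial reads made up 1.74% to 2.41% of every library except the RelB-DBDB 8 h library, which had 6.26%. Dendritic cell markers were present throughout. Itgax (CD11c) lay between 1071 and 1374 CPM and H2-Ab1 between 1213 and 1848 CPM in the 4 libraries, but Cd209a was at 0.162 to 2.46 CPM. Reads of Ifnar1 were found in all 4 libraries, at 123 and 102 CPM (1 h and 3 h) with IFNAR and at 102 and 56.1 CPM without it. A sum over the whole gene does not check a deletion of part of it. Tlr9, the CpG receptor gene, went from 59.4 to 45.3 CPM with IFNAR and from 79.3 to 57.2 CPM without it (log2 -0.43, limma adjusted p = 0.0198), a fall.

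Genes were grouped by what they did between control and 1 h and then between 1 h and 3 h, taking a change of at least 2-fold in both genotypes. These groups are descriptions, since both changes share the 1 h libraries. From 1 h to 3 h, 220 genes (1.86%) went up and 227 (1.92%) went down at least 2-fold in both genotypes. Only 30 genes had gone up that far by 1 h and 0 had gone down. Of those 30, 5 then switched off, 10 kept rising and 15 had no further 2-fold change shared by the genotypes. A further 187 genes started after 1 h, having moved less than 1.5-fold at 1 h in either genotype, and 206 first fell after 1 h by the same rule. The other 23 that rose and 16 that fell had moved at 1 h in at least 1 genotype, but not 2-fold in both. These names describe changes and not levels. Genes that switched off were still expressed at 3 h, and genes that started may have been expressed before.

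Promoters of 5 genes from the groups, and of Isg15, an antiviral gene that is in none of them, are shown because each holds a match to a textbook control element. They are 250 bases before to 50 bases after the transcription start from RefSeq on mm10 (GRCm38.p6), printed in the direction of transcription, with the element in capitals. Zfp36 (switched off) has a CArG match, the site of serum response factor, 58 bases before the start, and Dusp1 (switched off) has the cyclic AMP response element TGACGTCA at -143. Tnf (up at 1 h, with no shared 2-fold change after) and Il1b (kept rising) have TATAAA at -29 and -31. Cxcl2 (kept rising) has a pair of overlapping κB matches at -97 and -96, and Isg15 has 3 overlapping matches to the interferon response element from -78.
Zfp36 (chr7:28379179-28379478, minus strand): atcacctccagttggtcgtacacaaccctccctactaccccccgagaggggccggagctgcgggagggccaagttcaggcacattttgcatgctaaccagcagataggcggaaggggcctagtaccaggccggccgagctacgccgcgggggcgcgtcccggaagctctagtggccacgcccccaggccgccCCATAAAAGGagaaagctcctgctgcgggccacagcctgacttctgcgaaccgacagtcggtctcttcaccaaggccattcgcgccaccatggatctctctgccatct
Dusp1 (chr17:26508423-26508722, minus strand): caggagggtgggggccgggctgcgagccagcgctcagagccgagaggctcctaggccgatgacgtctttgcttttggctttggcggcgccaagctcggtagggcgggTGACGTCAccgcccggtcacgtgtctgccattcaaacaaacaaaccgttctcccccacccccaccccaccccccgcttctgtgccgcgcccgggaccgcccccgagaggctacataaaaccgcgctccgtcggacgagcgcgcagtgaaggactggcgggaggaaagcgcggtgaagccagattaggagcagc
Tnf (chr17:35201958-35202257, minus strand): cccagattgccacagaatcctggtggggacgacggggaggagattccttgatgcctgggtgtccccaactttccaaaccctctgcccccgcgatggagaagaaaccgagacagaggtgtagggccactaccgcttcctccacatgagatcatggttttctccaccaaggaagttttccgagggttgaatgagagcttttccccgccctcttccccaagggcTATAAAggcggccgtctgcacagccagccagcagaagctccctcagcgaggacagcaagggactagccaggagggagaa
Il1b (chr2:129371090-129371389, minus strand): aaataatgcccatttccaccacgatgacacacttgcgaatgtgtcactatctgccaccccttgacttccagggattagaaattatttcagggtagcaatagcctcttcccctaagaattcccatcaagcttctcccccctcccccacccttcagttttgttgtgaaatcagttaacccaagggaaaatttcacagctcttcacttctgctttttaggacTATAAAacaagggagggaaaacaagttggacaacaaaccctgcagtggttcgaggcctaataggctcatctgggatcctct
Cxcl2 (chr5:90903649-90903948, plus strand): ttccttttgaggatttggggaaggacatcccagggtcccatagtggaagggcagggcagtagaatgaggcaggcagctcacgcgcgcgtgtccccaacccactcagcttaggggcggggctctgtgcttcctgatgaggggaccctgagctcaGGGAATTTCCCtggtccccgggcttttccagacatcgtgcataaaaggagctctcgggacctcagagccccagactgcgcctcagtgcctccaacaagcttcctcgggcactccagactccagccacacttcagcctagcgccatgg
Isg15 (chr4:156200769-156201068, minus strand): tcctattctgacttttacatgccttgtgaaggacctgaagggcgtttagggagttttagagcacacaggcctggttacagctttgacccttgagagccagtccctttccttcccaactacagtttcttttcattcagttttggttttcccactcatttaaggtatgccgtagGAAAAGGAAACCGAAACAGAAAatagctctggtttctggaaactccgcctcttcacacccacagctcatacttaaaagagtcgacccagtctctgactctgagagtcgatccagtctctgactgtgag
Among 22862 mouse promoters of this length, read on both strands, 1.53% held the CArG match, 1.85% TGACGTCA, 14.8% TATAAA, 4.26% the κB match and 3.58% the interferon response element. A match is a description of letters and not evidence of binding. Of the tested genes 74.9% had a promoter in the table, too few to compare groups.

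**Figure D1:**
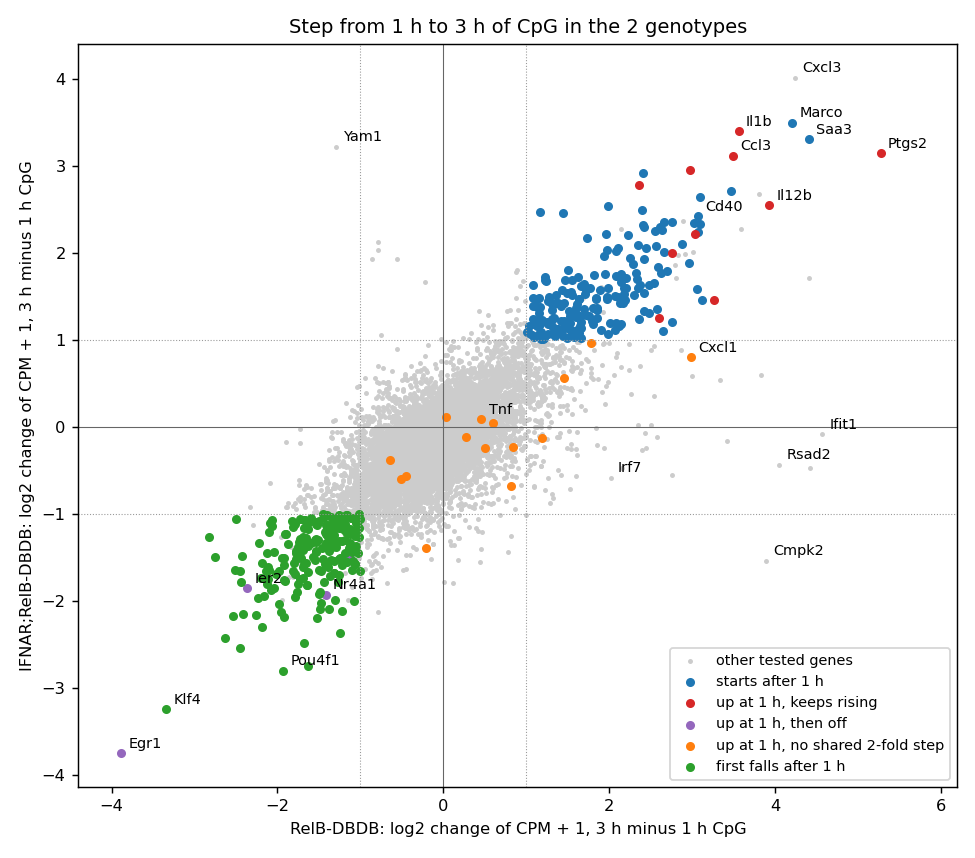
Each point is 1 of the 11850 tested genes, with the log2 change of CPM + 1 from 1 h to 3 h in RelB-DBDB (x axis) and IFNAR;RelB-DBDB (y axis), from 1 library per genotype and time. Dotted lines mark 2-fold and colours mark the time groups. Egr1 and Klf4 lie lowest in both genotypes, Ptgs2, Cxcl3 and Il1b high in both, and Ifit1, Rsad2 and Cmpk2 are high in RelB-DBDB but below 0 in IFNAR;RelB-DBDB.

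The genes that switched off were Egr1, Ier2, Nr4a1, Zfp36 and Dusp1, and with TMM or median-ratio factors 4 of them did. Egr1 encodes a zinc finger transcription factor of the immediate-early class. It stood at 9.13, 108, 6.38 and 6.45 CPM (control, 1, 3 and 8 h) with IFNAR and at 8.85, 162, 11.1 and 11.9 CPM without it. Both 1 h libraries stood far above the other 6, and the fall over the step was -3.82 ± 0.134 (log2, SE; limma adjusted p = 1.88e-07). At 3 h Egr1 was at 5.9% of its 1 h level in RelB-DBDB and 6.87% in IFNAR;RelB-DBDB.

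Ier2, an immediate-early regulator, and Nr4a1, an orphan nuclear receptor gene, fell in the same way. Ier2 went from 80.8 to 14.9 CPM with IFNAR and from 86.4 to 23.1 CPM without it (log2 -2.11 ± 0.149, limma adjusted p = 1.15e-05). Nr4a1 went from 14.8 to 4.9 CPM and, without IFNAR, from 28.5 to 6.74 CPM (step -1.68 ± 0.211, limma adjusted p = 0.000335). In each gene the 1 h and 3 h values did not overlap, which the grouping favours, and the 3 h values were near or below control.

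Zfp36 encodes tristetraprolin, which binds cytokine mRNAs and leads them to decay, and Dusp1 encodes a phosphatase that inactivates p38 and JNK. Zfp36 went from 147 CPM in control to 383 CPM at 1 h and 175 CPM at 3 h with IFNAR, and from 143 to 459 and 161 CPM without it (step -1.32 ± 0.106, log2, limma adjusted p = 2.65e-05). Dusp1 went from 71.2 to 150 and 72.5 CPM, and from 50.4 to 134 and 64.6 CPM (step -1.04 ± 0.0992, limma adjusted p = 6.65e-05). Over all 5 genes the ratio of 3 h to control was 0.541 to 1.32 with IFNAR and 0.691 to 1.28 without it. At 8 h Dusp1 stood at 107 and 116 CPM. Exons of Zfp36 and Dusp1 overlap Gm44710 and Ergic1 on the opposite strand, and whether reads were counted by strand is not given in the sources used here. The last inside the limit were Dusp1 and Zfp36, and the nearest outside were Ier3 (-0.45 in RelB-DBDB and -0.56 in IFNAR;RelB-DBDB) and Rgs1 (-0.50 and -0.60).

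Over the 26 immediate-early genes tested, 15 fell (8 with all 8 libraries) and 1 rose. Of all tested genes 16.9% fell (3.64% with all 8 libraries) and 8.36% rose. The median step of the list was -0.56 on the log2 scale. Fos, which pairs with Jun proteins in the AP-1 factor, went from 20.9 to 5.24 CPM with IFNAR and from 20.4 to 5.46 CPM without it (log2 -1.77, limma adjusted p = 0.000159). Jun, Junb and Jund fell by 0.82, 0.55 and 1.00 on the log2 scale. Egr2 (-0.68), Btg2 (-0.76), Bhlhe40 (-0.74) and Fosb (-1.20) fell too. The exception was Atf3, a stress-induced repressor, which rose from 393 to 625 CPM and from 349 to 498 CPM (step 0.59). Myc (-0.03), Klf6 (0.03), Fosl2 (0.07) and Srf (0.02) were not called.

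**Figure D2:**
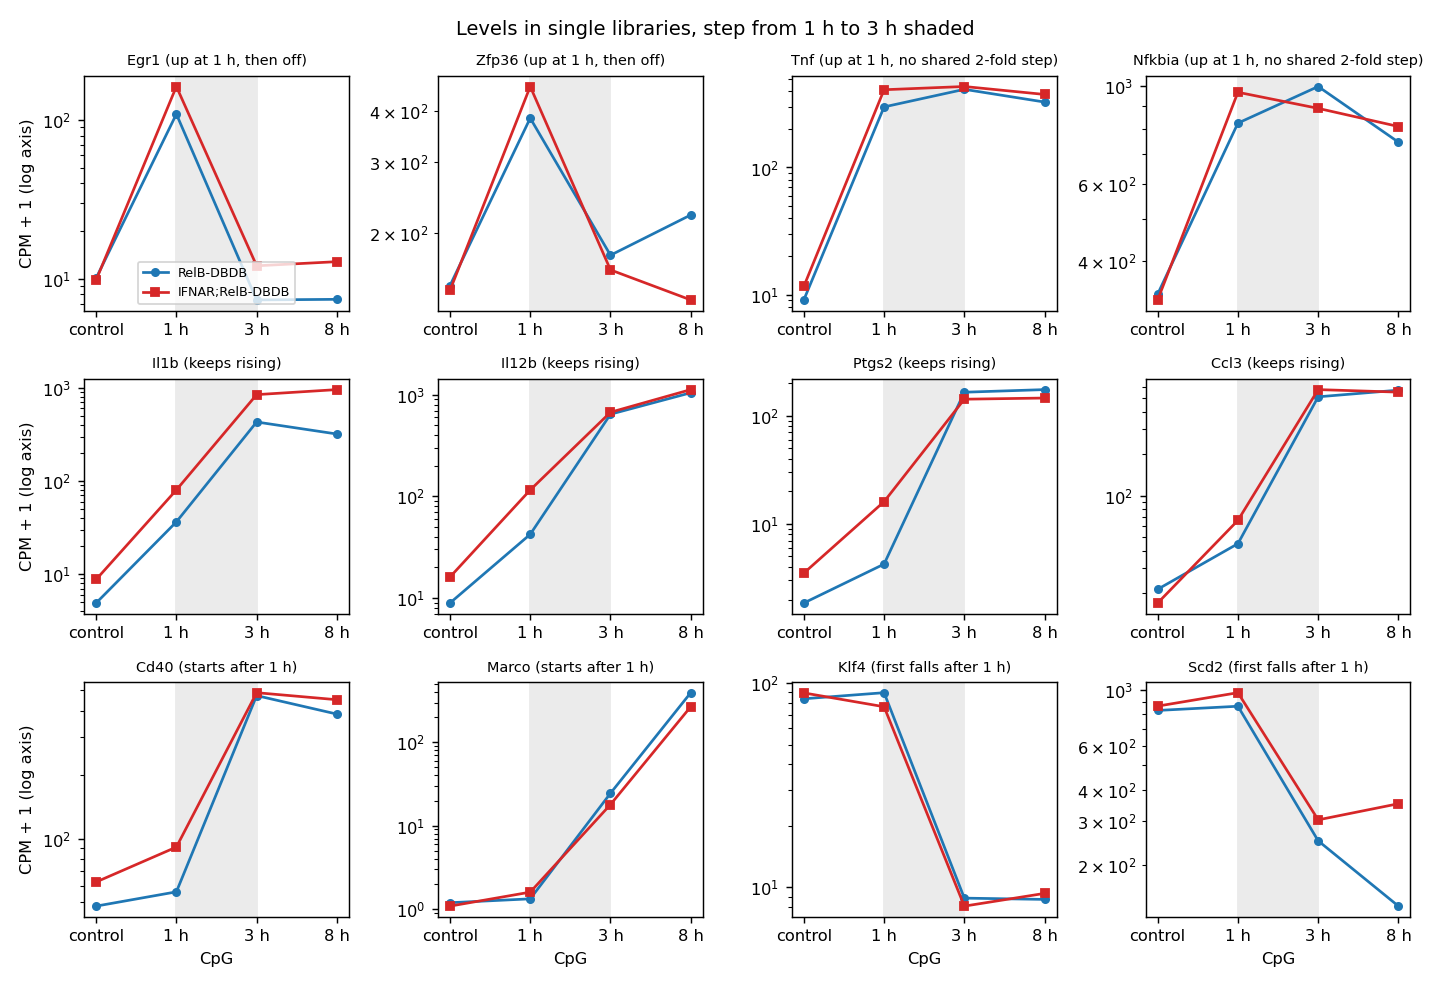
CPM + 1 on log axes for 12 genes in control cells and at 1, 3 and 8 h of CpG, 1 point per library, with the step from 1 h to 3 h shaded. Egr1 and Zfp36 peak at 1 h, Tnf and Nfkbia change little across the step, Il1b, Il12b, Ptgs2 and Ccl3 climb through it, Cd40 and Marco climb mainly within or after it, and Klf4 and Scd2 drop within it.

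The 15 genes that were up at 1 h and then made no shared 2-fold change included Tnf and the inhibitors of NF-κB. Tnf stood at 8.08, 298, 411 and 326 CPM (control, 1, 3 and 8 h) with IFNAR and at 10.6, 408, 432 and 374 CPM without it. Its step was 0.27 ± 0.105 (log2, limma adjusted p = 0.0849), and 72.1% and 94.2% of its gain by 3 h was present at 1 h. Tnf was called higher with TMM factors, with median-ratio factors and with no filter, but not with all 8 libraries. Nfkbia, which encodes IκBα, went from 823 to 997 CPM with IFNAR but from 968 to 889 CPM without it (log2 0.08, limma adjusted p = 0.642). The groups overlapped.

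Tnfaip3 encodes A20, a ubiquitin-editing enzyme that restrains NF-κB. It went from 445 to 634 CPM with IFNAR and from 701 to 590 CPM without it (log2 0.13, limma adjusted p = 0.558), again in opposite directions. Socs3, which blocks cytokine receptor signals, stood at 103 and 156 CPM (1 h and 3 h) and at 184 and 190 CPM, with no call (0.32, limma adjusted p = 0.093). Of the 15, 7 were called over the step. Nfkbiz, an atypical IκB protein needed for Il6 and Il12b, rose from 111 to 304 CPM and from 182 to 268 CPM (step 1.00, limma adjusted p = 0.00178), as did Phlda1 (1.37) and the chemokine gene Cxcl1 (1.89). Ier3 (-0.51), Rgs1 (-0.55), Tagap (-0.51) and the phosphatase gene Dusp2 (-0.80) fell. Tagap and Dusp2 were not called with TMM or median-ratio factors, and of these 7 genes only Phlda1 was called with all 8 libraries. Il23a, a subunit gene of interleukin 23, had 0 reads in both controls, 4.55 and 11.6 CPM (1 h and 3 h) in RelB-DBDB and 7.05 and 6.37 CPM in IFNAR;RelB-DBDB, and was back at 1.69 and 0.269 CPM at 8 h.

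Among the 20 NF-κB feedback regulators tested, 10 rose and 1 fell, against 8.36% and 16.9% of all tested genes. Their median step was 0.42. Nfkbie (IκBε) went from 64.1 to 235 CPM with IFNAR and from 106 to 269 CPM without it (log2 1.60 ± 0.124, limma adjusted p = 2.04e-05), and its controls were 60.6 and 74.9 CPM. Bcl3, a coactivator of the p50 and p52 subunits, went from 35.4 to 105 CPM and, without IFNAR, from 44.5 to 132 CPM (1.54 ± 0.108, limma adjusted p = 1.07e-05). The gene that fell was Map3k14, which encodes NIK, the kinase that starts the noncanonical NF-κB pathway leading to RelB and p52.

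Map3k14 stood at 460 CPM at 1 h and 146 CPM at 3 h with IFNAR and at 421 and 165 CPM without it, with 3 h values far below every 1 h and control value (log2 -1.50 ± 0.1, limma adjusted p = 8.49e-06). Exons of 1700028N14Rik overlap it on the same strand. Of the 5 subunit genes 3 rose and 1 fell (1 and 0 with all 8 libraries). Of all tested genes 8.36% rose and 16.9% fell (3.3% and 3.64% with all 8 libraries). The 1 fall among 5 is near that share. Relb went from 102 to 197 CPM and, without IFNAR, from 115 to 206 CPM (0.89, limma adjusted p = 0.000123), Nfkb2 from 269 to 495 CPM and from 284 to 518 CPM (0.87), and Nfkb1 from 504 to 710 CPM and from 470 to 744 CPM (0.58). Rel fell by 0.33 on the log2 scale, but was not called with TMM or median-ratio factors. Rela was level (-0.01).

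The 10 genes that kept rising were Ptgs2, Il1b, Ccl3, Il12b, Ccl4, Clec4e, Il1a, Cxcl2, Cxcl10 and Il6. All were already at least 2-fold above control at 1 h, yet a median of 7.26% of the 3 h gain in RelB-DBDB (1.47% to 16.2%) and 14.5% in IFNAR;RelB-DBDB (8.54% to 38.8%) had been reached by then. Il1b, which encodes interleukin 1β, stood at 3.9, 35.4, 428 and 318 CPM (control, 1, 3 and 8 h) with IFNAR and at 7.76, 79.1, 843 and 955 CPM without it. The 3 h to 1 h ratio was 12.1 (95% exact interval of counting error, 10.6 to 13.9) and 10.7 (9.93 to 11.4), and the step 3.48 ± 0.0943 (log2, limma adjusted p = 5.52e-08). Exons of Il1bos overlap Il1b on the opposite strand.

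Ptgs2 encodes cyclooxygenase 2, which makes prostaglandins. It stood at 0.856, 3.25 and 163 CPM (control, 1 and 3 h) with IFNAR and at 2.5, 15 and 141 CPM without it. The genotypes lay closer at 3 h than at 1 h, and the 3 h to 1 h ratio was 50.3 (32.4 to 82.6) in RelB-DBDB and 9.35 (7.93 to 11.1) in IFNAR;RelB-DBDB. Its step was 4.21 ± 0.361 (limma adjusted p = 3.78e-05), the largest of all called genes. Il12b, the p40 chain of interleukins 12 and 23, stood at 41.2 and 643 CPM (1 h and 3 h) against 115 and 672 CPM, and at 1045 and 1124 CPM at 8 h (step 3.24 ± 0.236, limma adjusted p = 1.45e-05).

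Il6 stood at 50 and 307 CPM (1 h and 3 h) with IFNAR and at 102 and 243 CPM without it (log2 1.92, limma adjusted p = 0.000267). Il1a went from 45 to 235 CPM and, without IFNAR, from 58.7 to 407 CPM (2.57). Clec4e, which encodes the C-type lectin Mincle, went from 75.3 to 626 CPM and, without IFNAR, from 58.7 to 275 CPM (2.62). In these 3 genes too both 3 h values exceeded both 1 h values, which grouping by a 2-fold rise in both genotypes favours. Nearest to the limit inside the group were Il6 and Cxcl10, with 1.25 and 1.46 in IFNAR;RelB-DBDB, and nearest outside were Phlda1 (0.96) and Cxcl1 (0.80).

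Chemokines, which draw leukocytes, had 13 of 15 tested members that rose (8 with all 8 libraries) and none that fell. Among all tested genes 8.36% rose (3.3% with all 8 libraries) and 16.9% fell. The median step of the list was 1.89. Ccl3 and Ccl4 are neighbours on chromosome 11 (chr11:83647844-83649355 and chr11:83662584-83664683, mm10). Ccl3 went from 44.2 to 509 CPM with IFNAR and from 65.4 to 574 CPM without it (3.31 ± 0.109, limma adjusted p = 1.37e-07). Ccl4 went from 16.2 to 134 CPM and, without IFNAR, from 28.2 to 225 CPM (2.96 ± 0.111, limma adjusted p = 2.72e-07). At 8 h Ccl3 stood at 569 and 550 CPM and Ccl4 at 76.5 and 201 CPM.

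The neutrophil attractants lie together on chromosome 5, from Cxcl5 (chr5:90759360-90761624) through Cxcl3 and Cxcl1 to Cxcl2 (chr5:90903871-90905938). Cxcl3 went from 29.2 to 571 CPM with IFNAR and from 5.01 to 95.8 CPM without it (4.13 ± 0.12, limma adjusted p = 5.52e-08), and its ratios of 19.5 and 19.1 were close although the levels were not. Cxcl2 went from 68.2 to 466 CPM and, without IFNAR, from 39.6 to 161 CPM (2.37). Cxcl1 went from 6.82 to 60.8 CPM but only from 8.07 to 14.7 CPM (1.89), and Cxcl5 from 0.974 to 41 CPM and from 0.255 to 3.1 CPM (3.06). Cxcl2 and Cxcl3 are near copies, so short reads may be shared between them. Ccl5, Ccl9, Ccl22 and Cxcl16, already at 188 to 10284 CPM at 1 h, rose by 0.67, 0.81, 0.67 and 0.74, and Ccl17 (-0.09) and Ccl7 (0.28) were not called.

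The genes that started after 1 h were led by Marco, Saa3, Fpr1, Layn and Cd40. At 1 h a median of 0.448% of their 3 h gain in RelB-DBDB and 2.54% in IFNAR;RelB-DBDB was present. Marco, a scavenger receptor gene, had 0.325 CPM at 1 h and 23.5 CPM at 3 h with IFNAR, and 0.594 and 16.9 CPM without it (3.85 ± 0.264, limma adjusted p = 1.03e-05). It stood higher still at 8 h, at 392 and 266 CPM. Saa3, an acute-phase protein gene, went from 0.487 to 30.5 CPM and, without IFNAR, from 1.19 to 20.6 CPM (3.85), and Fpr1, a receptor for bacterial formyl peptides, from 3.57 to 49.5 CPM and from 5.69 to 42.8 CPM (3.09).

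Cd40, the receptor through which T cells stimulate dendritic cells, went from 55 to 472 CPM with IFNAR and from 90.2 to 487 CPM without it (2.75 ± 0.138, limma adjusted p = 1.74e-06). It headed the genes of dendritic cell maturation, of which 17 of 22 rose (13 with all 8 libraries). This compares with 8.36% (3.3%) of all tested genes, and the median step of the list was 1.04. Icosl went from 12.8 to 86.3 CPM and, without IFNAR, from 29 to 152 CPM (2.50), Cd80 from 55.8 to 245 CPM and from 69.7 to 197 CPM (1.80), and Fscn1, the actin-bundling protein of dendrites, from 262 to 1114 CPM and from 243 to 991 CPM (2.05). Cd70, the ligand of CD27, went from 1.46 to 18.8 CPM and, without IFNAR, from 2.97 to 14.9 CPM (2.51). Cd86 rose by 0.50 only. Cd83 (-0.13) and Ccr7 (-0.33), the homing receptor to lymph nodes, were not called. Tnfrsf9 fell by 0.38, but no gene of the list was called lower with TMM factors, median-ratio factors or all 8 libraries.

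The other inflammatory genes that started in the step were Ebi3 (107 to 245 CPM with IFNAR and 93.7 to 220 CPM without it, step 1.20), its partner Il27 (0.162 to 2.85 and 0.679 to 6.55 CPM, 1.95), Csf3 and Nos2. Nos2, inducible nitric oxide synthase, went from 231 to 653 CPM and, without IFNAR, from 140 to 407 CPM (1.51, limma adjusted p = 4.15e-06). Ebi3 and Nos2 were thus already expressed at 1 h and rose from that level. Csf3, which encodes the growth factor G-CSF, had 0 reads and 3.42 CPM (1 h and 3 h) in RelB-DBDB and 0.0849 and 1.46 CPM in IFNAR;RelB-DBDB. In all, 13 of 22 inflammatory genes rose, and Osm (-0.49) and Vegfa (-0.62) fell, where 8.36% of all tested genes rose and 16.9% fell. The list had 1 gene called lower with TMM or median-ratio factors, and 11 higher and 0 lower with all 8 libraries. Irg1, which makes itaconate, went from 119 to 1686 CPM and, without IFNAR, from 159 to 1025 CPM (3.24) but had moved somewhat by 1 h. Of 27 genes of the Toll-like receptor pathway 11 rose, among them Ikbke (2.49), Tlr1 (1.80), Tlr2 (1.42), Ripk2 (0.87) and Myd88 (0.59), and Tlr4 (-0.78), Unc93b1 (-0.39), Tab1 (-0.65) and Tlr9 fell. Tlr9 was not called with TMM or median-ratio factors, and TMM factors left 1 gene of the list called lower. With all 8 libraries 3 of the list were called higher and 1 lower, against 3.3% and 3.64% of all tested genes. The falls of this list were near the share of all tested genes, both in the main fit and with all 8 libraries.

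All 12 genes of the oxidant response list rose (10 with all 8 libraries), against 8.36% (3.3% with all 8 libraries) of all tested genes called higher. Their median step was 1.24, and the list includes Nfe2l2, which encodes the factor NRF2. Hmox1, heme oxygenase 1, went from 1724 to 5841 CPM with IFNAR and from 860 to 2075 CPM without it (1.51 ± 0.125, limma adjusted p = 3.04e-05). Prdx1, a peroxide-reducing enzyme, went from 417 to 1513 CPM and, without IFNAR, from 318 to 822 CPM (1.61), and Sod2, mitochondrial superoxide dismutase, from 76.8 to 305 CPM and from 78.6 to 223 CPM (1.73). Txnrd1 (1.24), Srxn1 (1.40), Gclm (1.10), Slc7a11 (1.24), Nqo1 (1.44), Sqstm1 (1.14), Gsr (0.94), Nfe2l2 (0.65) and Gclc (0.63) followed. At 8 h Hmox1 stood at 1897 and 1031 CPM, beside 1955 and 956 CPM in control. Of 10 tested metallothionein and zinc or iron transport genes 6 rose, 1 fell and 3 were not called (5 rose and 0 fell with all 8 libraries). Of all tested genes 16.9% fell (3.64% with all 8 libraries), so 1 fall among 10 is no more than that share. They included the iron storage gene Fth1 (0.91) and the iron exporter gene Slc40a1 (1.43), which rose, and the zinc exporter gene Slc30a1 (-0.82), which fell. The survival gene Bcl2l1 rose from 92.7 to 509 CPM and from 108 to 454 CPM (2.25 ± 0.108, limma adjusted p = 1.27e-06).

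**Figure D3:**
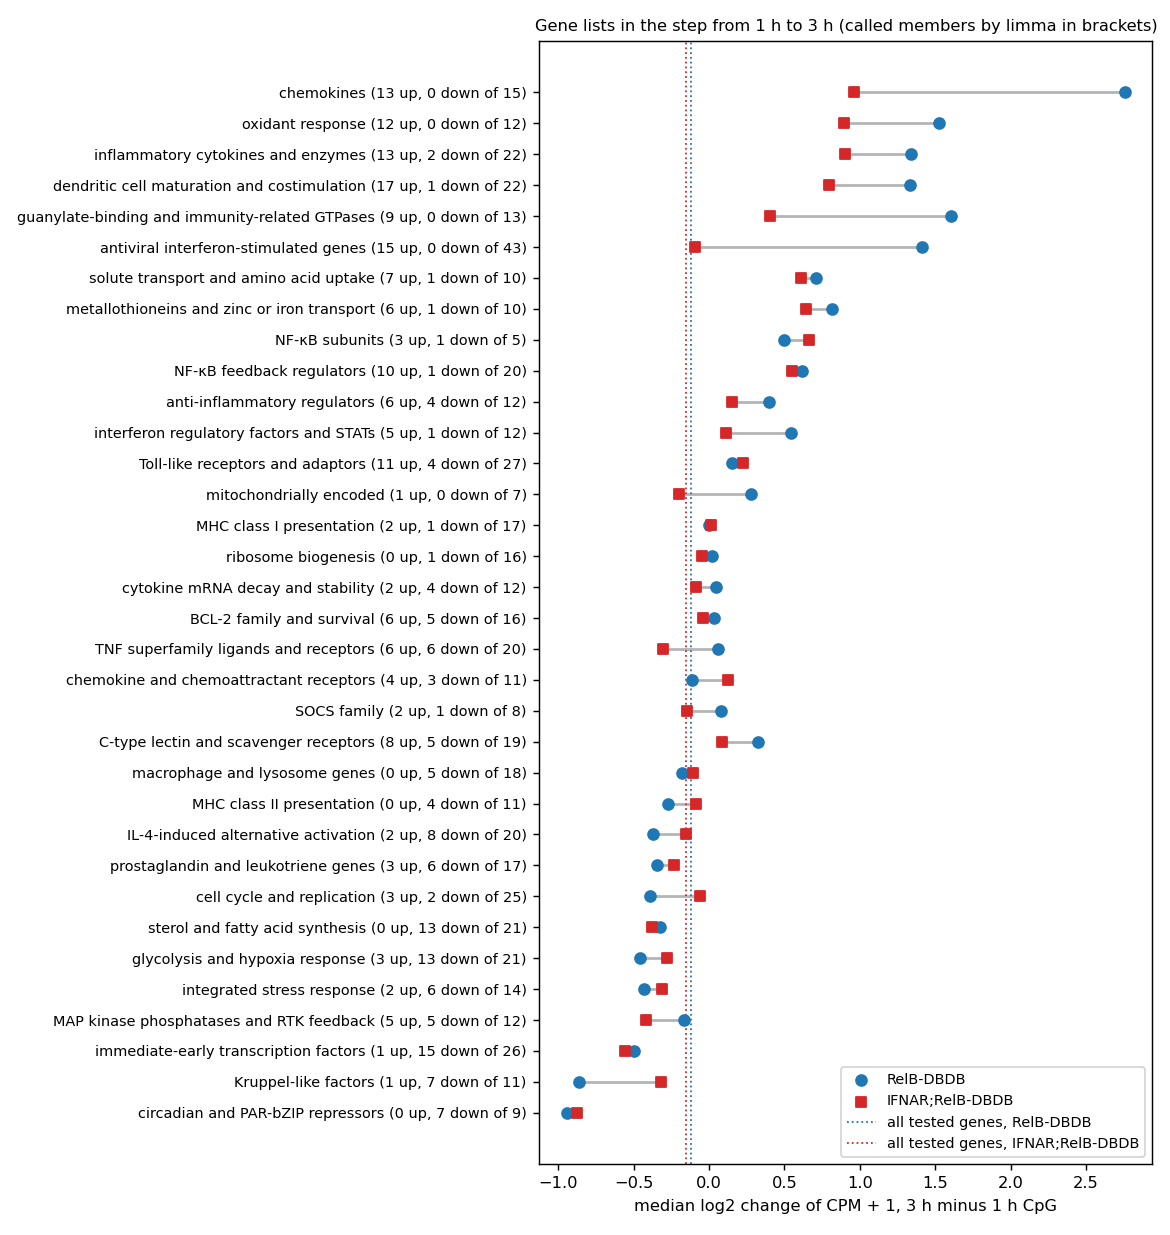
Median log2 change of CPM + 1 from 1 h to 3 h over the tested members of each gene list, by genotype (1 library per genotype and time), with called members in brackets. Dotted lines mark the medians of all tested genes, -0.12 in RelB-DBDB and -0.15 in IFNAR;RelB-DBDB. The chemokine, inflammatory and oxidant response lists lie far above these lines in both, the antiviral list has its 2 points far apart, and the clock repressors lie lowest.

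The 206 genes that first fell after 1 h were led by Klf4, a Krüppel-like factor of monocyte and macrophage development. Klf4 stood at 82.8, 88.8, 7.86 and 7.74 CPM (control, 1, 3 and 8 h) with IFNAR and at 88.6, 75.6, 7.1 and 8.35 CPM without it, so nearly all of the drop fell within the step (-3.29 ± 0.148, limma adjusted p = 8.65e-07). Tbc1d2, a regulator of endosome traffic, went from 73.7 to 11.1 CPM and, without IFNAR, from 71.1 to 12.4 CPM (-2.53). Snx30 went from 117 to 20.6 CPM and, without IFNAR, from 66.4 to 10.6 CPM (-2.50). Among the tested Krüppel-like factors 7 of 11 fell, Klf2 (-1.60), Klf11 (-1.04), Klf10 (-0.90) and others, and Klf7 rose (0.83). With all 8 libraries 4 fell and 1 rose. Over all tested genes 16.9% fell and 8.36% rose, and 3.64% and 3.3% did with all 8 libraries.

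Other regulators fell with Klf4. Zfp36l2, a relative of Zfp36, went from 174 to 31.6 CPM with IFNAR and from 163 to 57.7 CPM without it (-1.96). Of 9 tested clock and PAR-bZIP genes 7 fell (3 with all 8 libraries), against 16.9% (3.64%) of all tested genes. None rose, though 1 did by TMM factors, and the median step was -0.91. Among the falls were Per1 (31.2 to 9 and 36.8 to 11.7 CPM, -1.63), Nfil3 (-1.84), Cry2 (-1.14) and Tef (-0.98). The chemokine receptor gene Cxcr4 went from 141 to 25.1 CPM and, without IFNAR, from 80.7 to 22.8 CPM (-2.11). Tsc22d3, a glucocorticoid-induced inhibitor, went from 42.2 to 13 CPM and, without IFNAR, from 31.6 to 9.29 CPM (-1.64).

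Scd2, a stearoyl-CoA desaturase, went from 861 to 249 CPM with IFNAR and from 976 to 302 CPM without it (-1.74 ± 0.0885, limma adjusted p = 1.95e-06), and Lpin1, a phosphatidate phosphatase, from 65.7 to 10.5 CPM and from 55.9 to 11.7 CPM (-2.35). Across all tested genes 16.9% fell and 8.36% rose, with 9.38% and 10.5% by TMM factors and 3.64% and 3.3% with all 8 libraries. Of 21 sterol and fatty acid genes 13 fell, with 6 by TMM factors and 2 with all 8 libraries. Of 21 glycolysis and hypoxia genes 13 fell and 3 rose, with 6 and 3 by TMM factors. With all 8 libraries 1 of these fell, near the share of all tested genes, and 2 rose. The risers were Hk2 (0.80), the glucose transporter Slc2a1 (0.73) and Hif1a (0.51), and Bnip3 (-1.85), Slc16a3 (-1.02) and Pfkl (-0.86) fell most. The amino acid carrier Slc7a5 went from 93.3 to 30.8 CPM and, without IFNAR, from 91.5 to 31.9 CPM (-1.53).

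Genes of the IL-4 response and of lipid mediators were among the falls of smaller size. Arg1, arginase 1, went from 2902 to 1395 CPM with IFNAR and from 1658 to 954 CPM without it (-0.93, limma adjusted p = 0.000167). Mrc1 (-0.96) and Clec10a (-0.84) fell as well. Of 20 such genes 8 fell and 2 rose, with 5 and 2 by TMM factors and 3 and 1 with all 8 libraries. Over all tested genes 16.9% fell and 8.36% rose, with 9.38% and 10.5% by TMM factors and 3.64% and 3.3% with all 8 libraries. The rises of this list were near those shares. Of 17 prostaglandin and leukotriene genes 3 rose and 6 fell, with 3 and 4 by TMM factors and 2 and 2 with all 8 libraries. Ptgs1 went from 235 to 93.2 CPM and, without IFNAR, from 176 to 73.6 CPM (-1.29, limma adjusted p = 1.52e-05), while Ptgs2 rose as given above, with Ptges (1.58) and Pla2g4a (0.84), and Alox5, Alox5ap, Alox15, Tbxas1 and Ptgir fell by 0.46, 0.29, 0.69, 0.65 and 0.58. The main MHC class II chains were level (H2-Aa -0.09, H2-Ab1 -0.10, Cd74 -0.13, none called), and 4 of 11 genes of that pathway fell, with 2 by TMM factors and 0 with all 8 libraries, while 1 rose by TMM factors.

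In the antiviral interferon-stimulated genes the steps of the 2 genotypes lay apart. Among 43 tested, 29 had a step of at least 2-fold in RelB-DBDB, where 4.61% of all tested genes did, and 0 had one in IFNAR;RelB-DBDB, where 2.29% did. At 2.29% a list of 43 may well hold none. A step of 2-fold or more downward was made by 0 members with IFNAR and 2 without it, against 4.83% and 3.66% of all tested genes. The 2 downward steps without IFNAR are near that share. The median step was 1.41 in RelB-DBDB and -0.09 in IFNAR;RelB-DBDB, and it was larger in RelB-DBDB in all 43, as in 55.1% of all tested genes. Limma called 15 higher, where 8.36% of all tested genes were, but 0 with all 8 libraries (3.3% of all tested genes). In that fit 0 had an unadjusted p under 0.05. The difference between the genotypes was not tested, since each has 1 library at each time.

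Ifit1, an antiviral RNA-binding protein gene, went from 4.55 to 131 CPM and on to 740 CPM at 8 h in RelB-DBDB, but stood at 8.74, 8.19 and 8.35 CPM (1, 3 and 8 h) in IFNAR;RelB-DBDB. Isg15, a ubiquitin-like modifier whose promoter is given above, went from 8.93 to 78.3 CPM, a ratio of 8.77 (6.66 to 11.8), and from 10.1 to 15.7 CPM, a ratio of 1.55 (1.16 to 2.06). Irf7, which drives interferon α genes, went from 7.47 to 33.3 CPM and, without IFNAR, from 7.05 to 4.37 CPM. In these 3 genes the 3 h library of RelB-DBDB was far above its 1 h library, and that of IFNAR;RelB-DBDB was closer to its own.

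Cmpk2, a mitochondrial nucleotide kinase gene, moved in opposite directions by over 2-fold, from 4.55 to 81 CPM with IFNAR and from 15.1 to 4.55 CPM without it. The only other such gene was Yam1. Ifnb1, which encodes interferon β, was below the filter, with 0 reads at 1 h and 8 reads at 3 h in RelB-DBDB and 2 and 6 reads in IFNAR;RelB-DBDB, so its transcript was found at 3 h in both genotypes. Of the called members, Parp14 went from 129 to 555 CPM and, without IFNAR, from 204 to 368 CPM (1.47, limma adjusted p = 0.000825), and Ifih1, the RNA sensor MDA5, from 35.4 to 84.2 CPM and from 32 to 49.7 CPM (0.92).

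The guanylate-binding and immunity-related GTPases, which interferon γ also induces, had the larger step in RelB-DBDB in 12 of 13. At least a 2-fold step was seen in 9 of 13 in RelB-DBDB and 0 of 13 in IFNAR;RelB-DBDB. The shares of all tested genes were 4.61% and 2.29%, and at 2.29% a list of 13 may well hold none. The medians were 1.61 and 0.41, against -0.12 and -0.15 over all tested genes. In IFNAR;RelB-DBDB the antiviral list had a lower median, -0.09. Limma called 9 higher, where 8.36% of all tested genes were. With all 8 libraries it called 0 (3.3% of all tested genes), with 1 at an unadjusted p under 0.05. Gbp4 went from 34.4 to 166 CPM with IFNAR and from 180 to 347 CPM without it (1.59). Irgm2 went from 17.5 to 93.2 CPM and, without IFNAR, from 65.3 to 66.5 CPM (1.19, limma adjusted p = 0.0467). The 1 h levels without IFNAR were higher in both genes. Ifng itself stood at 2.27 and 0.912 CPM with IFNAR and at 9.42 and 9.65 CPM without it, and the T and NK cell markers summed to 72.2 and 56.2 CPM against 259.5 and 220 CPM. Their part in the result was not tested. These GTPases include near copies whose reads may be shared. Cxcl10, also a target of interferons, went from 6.66 to 72.5 CPM and, without IFNAR, from 22.4 to 63.4 CPM (2.36). Exons of Art3 overlap Cxcl10 and exons of Phrf1 overlap Irf7, each on the opposite strand.

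**Figure D4:**
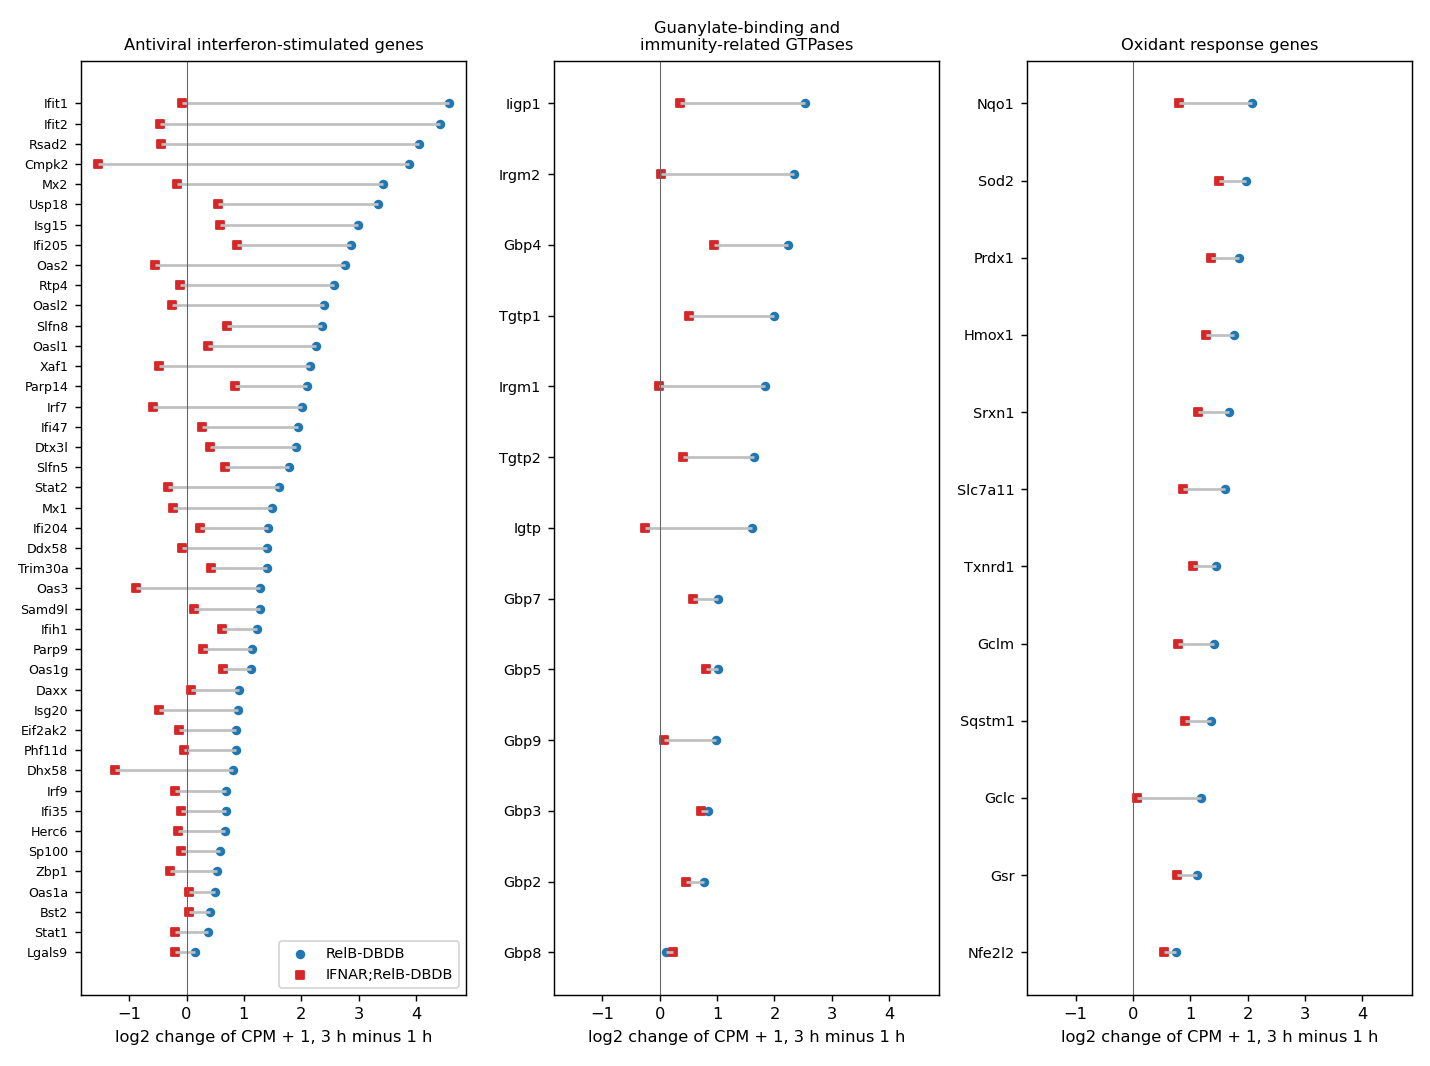
Log2 change of CPM + 1 from 1 h to 3 h for each tested member of 3 gene lists, with a circle for RelB-DBDB and a square for IFNAR;RelB-DBDB (1 library per genotype and time). The antiviral squares lie between -1.54 (Cmpk2) and 0.88 (Ifi205), while circles reach 4.57 (Ifit1). The oxidant response genes lie above 0 in both genotypes.

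Markers of other cell types were followed beside these results. The summed level of the neutrophil markers was 239 CPM at 1 h and 215 CPM at 3 h with IFNAR and 257 and 194 CPM without it. The mast cell and basophil markers summed to 24.5 and 15.5 CPM and to 47.1 and 31.3 CPM. In this list and the neutrophil list 1 member was called lower, Kit (-1.13) of 7 tested and Cxcr2 (-1.87) of 9 tested. Of all tested genes 16.9% were called lower and 8.36% higher, so 1 lower call in such a list is near the share of all genes. Of the T and NK cell markers, whose sums are given above, Gzma was called lower (-0.34), though not with TMM or median-ratio factors, and Ncr1 had 0 reads in all 4 libraries. The macrophage markers summed to 993 and 870 CPM and to 916 and 942 CPM, with Cd14 called higher (1.21) and Cd68 lower (-0.31) by limma, the latter not with TMM or median-ratio factors. The plasmacytoid dendritic cell markers summed to 117 and 177 CPM and to 107 and 132 CPM, with Tcf4 called higher (0.68). The stromal markers summed to 102 and 38.2 CPM and to 97.5 and 54.6 CPM, nearly all from Pecam1 (-1.19), which leukocytes also carry. With all 8 libraries Cxcr2 and Pecam1 were still called, and Kit, Gzma, Cd14, Cd68 and Tcf4 were not. In that fit 3.3% of all tested genes were called higher and 3.64% lower. In bulk RNA, fewer cells of a type and less RNA per cell cannot be told apart, and the part of these cells in the results was not tested.

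Gene size was not used for the grouping. The median genomic span was 5.16 kb with 3 exons for the genes that switched off, 2.63 kb with 4 exons for those up at 1 h without a shared step after, and 6.72 kb with 5.5 exons for those that kept rising. It was 32.2 kb with 9 exons for the 187 that started after 1 h and 29.2 kb with 9 exons for the 206 that first fell, against 23 kb with 9 exons for all tested genes. The early groups have 5 to 15 members, and no test was made.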

How the data were processed

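Messenger RNA was sequenced from 8 libraries. The deposited table holds a signal that the authors made as CPM + 1 for each gene, on mm10, and cutadapt and edgeR were used upstream, per the submitters' processing notes. No source used here names the aligner, the counter or its strand setting. From the values, 1 was subtracted and library totals were worked back from the smallest step. The 16 columns of other samples and 2161 rows with no gene name were left out. The unit was not counts, so limma 3.58.1 (R 4.3.3) was used, with trend, on log2(CPM + pseudocount 1), with time and genotype as terms and Benjamini-Hochberg adjustment over 11850 genes. Ratio intervals are exact Poisson intervals at 95%, covering counting error only. Coordinates were matched by name to GENCODE M21 for 11296 tested genes. Scaling factors, pseudocounts, filters, other fits and left-out libraries were tried. Members and lists were chosen with earlier results of these data known. The named genes were a fixed set, the 12 largest increases and decreases, the 8 largest per time group and up to 4 per list, and further list members were named after their values were seen. The limma step was tested on simulated data. Some genes are not reported here.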

Additional observations from a re-analysis of the deposited data

Results flagged for a closer look

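Both genes that moved at least 2-fold in opposite directions in the 2 genotypes stood out because of that, and the difference between the genotypes was not tested, since each has 1 library at each time. For Cmpk2 the step of RelB-DBDB minus that of IFNAR;RelB-DBDB was 5.42 on the log2 scale, with 4.55 and 81 CPM (1 h and 3 h) against 15.1 and 4.55 CPM. For Yam1 that difference was -4.50, with 17445 and 7146 CPM against 1881 and 17486 CPM. The name Yam1 matched no GENCODE gene. With its reads left out of the library totals, 3100 genes were called in place of 2998.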

How the results depend on the processing

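Limma called 822 genes with all 8 libraries (391 higher, 431 lower), 541 without the genotype term (242 and 299) and 417 against a fold of 1.5 (224 and 193). Lower calls numbered 1111 with TMM and 1150 with median-ratio factors. Leaving out 1 library gave 0 to 3878 calls, 0 to 1181 higher and 0 to 2697 lower. The 3-library fits without a term for genotype gave 0 without the RelB-DBDB 1 h or 3 h library (1883 and 1845 at an unadjusted p under 0.05) and 13 and 199 without those of IFNAR;RelB-DBDB. In them a lone sample is assumed to vary like the other group. The cause of these shifts was not tested. Time groups depend on the fold: at 1.5-fold, 3-fold and a pseudocount of 5 there were 10, 1 and 3 genes that switched off, 19, 4 and 5 that kept rising, 471, 57 and 124 that started and 909, 41 and 110 that first fell, and 30 at 1.5-fold that were up at 1 h with no shared step. With TMM and median-ratio factors 4 and 4 switched off, 11 and 11 kept rising, 239 and 247 started and 151 and 146 first fell. By RelB-DBDB alone 483 started and 536 first fell, and by IFNAR;RelB-DBDB alone 10 switched off, 16 kept rising, 36 were up at 1 h with no step after and 406 first fell. Leaving out 1 library reversed some named genes, whose steps ranged (log2) from -0.68 to 0.11 for Cd79b, -1.23 to 3.58 for Cmpk2, -0.37 to 0.0392 for Eif2s3y, -1.11 to 0.0153 for Epx, -1.16 to 0.49 for Gzma, -0.54 to 0.62 for Hbb-bt, -1.61 to 0.87 for Ifng, -1.12 to 0.37 for Ighm, -0.18 to 3.07 for Iigp1, -0.0482 to 1.11 for Il23a, -0.81 to 2.24 for Irf7, -0.0563 to 0.21 for Nfkbia, -0.19 to 1.06 for Nlrc5, -1.20 to 0.67 for Prg2, -0.0834 to 2.58 for Tgtp1, -0.20 to 0.46 for Tnfaip3, -0.0461 to 0.23 for Uty and -1.25 to 3.18 for Yam1. Of 169 named genes that were called, 74 were called under all 13 alternatives that keep the libraries of the step. The edgeR and DESeq2 alternatives were not run, since the unit was not counts. The fit of the step is paired by genotype, and the 541 calls without the genotype term are those of the unpaired fit.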

Other observations

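The dual-specificity phosphatases that act on MAP kinases split within their family. The feedback list that holds them also holds other genes, and over the step 5 of its 12 tested members rose and 5 fell by limma. With all 8 libraries 3 rose and 3 fell. Shares of all tested genes were 8.36% and 16.9%, and 3.3% and 3.64% with all 8 libraries. Dusp4 fell from 61.4 to 33.2 CPM in RelB-DBDB cells and, in cells without IFNAR, from 68.5 to 20.8 CPM (step -1.27). Dusp5, specific for ERK, fell from 321 to 174 CPM and, without IFNAR, from 351 to 173 CPM (-0.95), alongside Dusp1, Dusp2 and Dusp10 (-0.92). Dusp16, which acts on JNK and p38, rose from 45.3 to 87.1 CPM and from 40.9 to 76.8 CPM (0.91), with Dusp14 (0.95) and Dusp8 (1.33). Dusp14 was not called with a pseudocount of 5, with all 8 libraries or without the genotype term. The list members Spred1 (0.79) and Spred2 (0.64), which are not phosphatase genes, rose too.

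Of 16 genes of the BCL-2 family and survival list 6 rose and 5 fell, with 3 and 1 called with all 8 libraries. The shares of all tested genes were 8.36% and 16.9%, and 3.3% and 3.64% with all 8 libraries. Besides Bcl2l1, Cflar, an inhibitor of caspase 8, rose from 235 to 671 CPM in RelB-DBDB cells and, without IFNAR, from 342 to 634 CPM (1.20). Bcl2a1a, Bcl2a1b and Bcl2a1d rose by 0.83, 0.75 and 0.70 on the log2 scale, but they are near copies whose reads may be shared. Pmaip1 (-0.75), Bmf (-0.75), Bbc3 (-0.81) and Bid (-0.48), which promote apoptosis, fell, as did the survival gene Bcl2 (-0.61), while Bcl2l11, which also promotes apoptosis, rose (0.36). Among the lectins Clec4d (1.48) and Clec4n (1.14) rose with Clec4e, and Clec7a, the receptor Dectin-1, fell from 574 to 330 CPM and from 577 to 312 CPM (-0.84).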
